A study of Mus musculus with 69 samples.

Results

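Naive pluripotency is held up in mES cells by a small set of transcription factors, and 9 of them were followed here: Nanog, Esrrb, Nr0b1, Tfcp2l1, Klf2, Klf4, Klf5, Tbx3 and Zfp42. They were taken by symbol, 1 row each, from the 55367 gene symbols of the count table. All 9 passed the filter on low counts in every fit. Bulk RNA sequencing of 69 libraries gave 3 replicates of each of 23 conditions. The cells were E14Tg2A mES cells, a feeder-independent line, as 3 clones: WT–mCherry, which carries H2B–mCherry under the EF1α promoter, WT–emiRFP, which carries H2B–emiRFP670 under the CAG promoter, and p53KO–emiRFP, a subclone of WT–emiRFP with a homozygous frameshift in Trp53 that was selected with Nutlin-3a. At 0 h the clones were cultures in serum and LIF. At 48, 72, 96, 120 and 144 h the cells were sorted by FACS from mosaic gastruloids, which are aggregates of mES cells that go through steps of gastrulation in N2B27 medium with a pulse of the Wnt agonist CHIR99021 from 48 to 72 h. WT + WT gastruloids were seeded with 150 WT–mCherry and 150 WT–emiRFP cells, and WT + p53KO gastruloids with 150 WT–mCherry and 25 p53KO–emiRFP cells.

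Each genotype and label was 1 clone, so a difference between p53KO–emiRFP and WT–emiRFP cells is a difference between a pair of clones. In gastruloids these clones also differed in the mosaic they came from and in the number of cells seeded, and the genotype cannot be told apart from these. The labels do not say what separates the replicates, and the p-values measure the spread between these libraries.

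Naive pluripotency is the state of the preimplantation epiblast and of mES cells kept in LIF. LIF acts through the receptor subunits Lifr and Il6st and through Stat3, which maintains Tfcp2l1 and Klf4, while Tbx3, Klf2, Esrrb and Nanog are reached by other inputs, and the factors maintain each other and the core factors Pou5f1 and Sox2. When LIF is withdrawn the naive factors are switched off, and cells pass through a formative state marked by Fgf5 and Otx2 before they become competent for germ layers or for primordial germ cells. Several naive factors are expressed again in primordial germ cells.

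The libraries held 26722541 to 72981570.0 counts each. Levels are given as normalised counts, that is raw counts divided by a size factor for each library. Changes are on the log2 scale, with the SE and the adjusted p over all genes tested from edgeR's quasi-likelihood test. Trp53, the targeted gene, was at 2331 to 2589 normalised counts in the p53KO–emiRFP libraries at 0 h and at 23677 to 27510.5 in the WT–emiRFP libraries, and was lower at every time point (log2 fold change -3.58 to -3.14). H2bc14, an H2B gene whose counts separated the clones with the emiRFP reporter from those with mCherry, was at 9353 to 10517 in WT–emiRFP libraries and at 6.2 to 8.21 in WT–mCherry libraries at 0 h. The mES cell label was matched by Pou5f1 and Sox2, which were at 29636 to 37569 and 24014 to 29213 normalised counts in WT–emiRFP cells at 0 h and at 28309 to 30460.1 and 22281 to 25396 in p53KO–emiRFP cells. In these bulk libraries fewer cells that express a gene and less RNA per cell cannot be told apart.

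The 9 genes lie apart from each other in the genome (GRCm38, Gencode vM21). Nanog lies at chr6:122707489-122714633 on the plus strand, Esrrb at chr12:86361117-86521628 (plus), Nr0b1 at chrX:86191764-86195947 (plus), Tfcp2l1 at chr1:118627945-118685168 (plus), Tbx3 at chr5:119670669-119684724 (plus) and Zfp42 at chr8:43295063-43306980 (minus). Of the Krüppel-like factors, Klf2 lies at chr8:72319033-72321656 (plus), Klf4 at chr4:55527143-55532466 (minus) and Klf5 at chr14:99298691-99315036 (plus). Zfp42 has a processed copy, Zfp42-ps1, that is counted as a gene of its own and may share reads with it. Tbx3 is overlapped on the other strand by Tbx3os1, which had at most 59 raw counts in any library, and the strand setting of the counting is not given in the sources used here.

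RefSeq promoter sequences (GRCm38.p6) were matched by symbol for 7 of the 9 genes, all but Klf5 and Tbx3. The 250 bases before a RefSeq start site are printed 5′ to 3′ on the gene's strand for Nanog (chr6:122707239-122707488, plus), Zfp42 (chr8:43307010-43307259, minus), Klf4 (chr4:55532476-55532725, minus) and Esrrb (chr12:86360867-86361116, plus). These 4 were picked because they differ in the motifs that their windows hold. They were not apart from the rest in expression, since all 9 genes were called lower in p53KO–emiRFP cells at 120 and 144 h. Capitals mark matches on either strand to the octamer core ATGCAAA, the SOX core ACAATG, the GC box GGGCGGGG, the CACCC box GGGTGTG or the STAT motif TTCNNNGAA.
Nanog: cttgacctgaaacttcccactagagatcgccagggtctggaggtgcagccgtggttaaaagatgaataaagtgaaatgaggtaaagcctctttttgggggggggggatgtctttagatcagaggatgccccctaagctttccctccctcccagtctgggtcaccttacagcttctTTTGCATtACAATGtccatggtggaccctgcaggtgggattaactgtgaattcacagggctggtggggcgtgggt
Zfp42: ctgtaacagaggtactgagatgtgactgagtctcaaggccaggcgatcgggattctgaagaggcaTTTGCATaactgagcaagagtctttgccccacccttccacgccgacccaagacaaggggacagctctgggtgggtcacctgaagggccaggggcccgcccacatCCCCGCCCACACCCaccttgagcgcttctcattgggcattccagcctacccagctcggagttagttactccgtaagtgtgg
Klf4: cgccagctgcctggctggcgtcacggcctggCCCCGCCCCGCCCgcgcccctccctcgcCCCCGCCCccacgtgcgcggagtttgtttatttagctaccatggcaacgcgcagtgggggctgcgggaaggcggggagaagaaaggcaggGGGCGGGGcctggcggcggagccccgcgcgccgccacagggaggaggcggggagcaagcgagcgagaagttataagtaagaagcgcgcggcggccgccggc
Esrrb: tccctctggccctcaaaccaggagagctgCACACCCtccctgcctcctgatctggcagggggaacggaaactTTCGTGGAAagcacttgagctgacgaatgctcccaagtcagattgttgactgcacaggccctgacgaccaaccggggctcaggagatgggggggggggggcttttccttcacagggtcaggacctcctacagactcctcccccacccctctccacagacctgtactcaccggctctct
In the Nanog window the octamer core, bound by Pou5f1, and the SOX core stood side by side. The Zfp42 window held an octamer core and a GC box and a CACCC box that overlapped by 1 base, both of the kind bound by Krüppel-like factors. In the Klf4 window there were 4 GC boxes and no other match, 2 of them overlapping, and in the Esrrb window a CACCC box and a STAT motif, which is a palindrome. Among all 32851 promoter windows in the table, 4.12% held the octamer core, 10.7% the SOX core, 16.1% the GC box, 6.93% the CACCC box and 7.02% the STAT motif, counted over the 250 bases. The core of the ESRRB motif, AAGGTCA, was searched as well and was in 4.08% of all windows and in none of the 4. The table holds another window for Nanog, chr6:122707315-122707564, which overlaps the one printed and holds the same octamer and SOX cores, and another for Esrrb, chr12:86421394-86421643, in which none of these motifs matched. The windows of Tfcp2l1 and Nr0b1, not printed, held none of the motifs searched, and that of Klf2 held the GC box. A match is a stretch of letters and not a measured binding site, and a link between motifs and levels was not tested.

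Per length of exons, the levels of the 9 genes in WT–emiRFP mES cells spanned a wide range. Zfp42 led with 514 ± 3.67 CPM per kb of exon (SD, n = 3), followed by Nanog with 331 ± 17.7, Esrrb with 164 ± 7.28, Klf2 with 135 ± 12 and Nr0b1 with 117 ± 8.24. Klf4 had 68.4 ± 2.92, Tfcp2l1 58 ± 10.7, Klf5 53.4 ± 9.76 and Tbx3 21.1 ± 1.51. Libraries of Klf2 and Nr0b1 overlapped, as did those of Tfcp2l1 and Klf5, and the other neighbours in this order did not. With the length of the longest transcript in place of all exons, Klf5 stood above Klf4 and Tfcp2l1. At 144 h in WT–emiRFP cells Zfp42 and Nanog again led with 204 ± 18.6 and 197 ± 17.3 CPM per kb of exon, with overlapping libraries, and Klf4 was last with 9.04 ± 1.79.

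All 9 factors fell from the mES cell cultures to 48 h and came back in part in WT cells. In each of the 3 sorted WT populations, 9 of 9 had their lowest mean of the gastruloid time points at 48 h. As a percentage of the same clone at 0 h, the median over the 9 in WT–emiRFP cells was 5.49% at 48 h, with a range of 1.33% for Klf4 to 9.9% for Klf2. It was 27.1% at 120 h and 39.6% at 144 h, where the range was 13.2% for Klf4 to 59.4% for Nanog. In WT–mCherry cells the median was lower than in WT–emiRFP cells at these times, with 23.1% and 26.4% beside WT cells and 19.8% and 29.3% beside p53KO cells. In p53KO–emiRFP cells the median was 6.63% at 48 h, 5.96% at 120 h and 7.36% at 144 h, where the range was 4.49% to 23.4%. Only 4 of the 9 had their lowest level at 48 h in these cells, namely Nanog, Klf4, Tfcp2l1 and Tbx3, while Klf2, Zfp42 and Nr0b1 were lowest at 120 h, Esrrb at 96 h and Klf5 at 144 h.

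**Figure D1:**
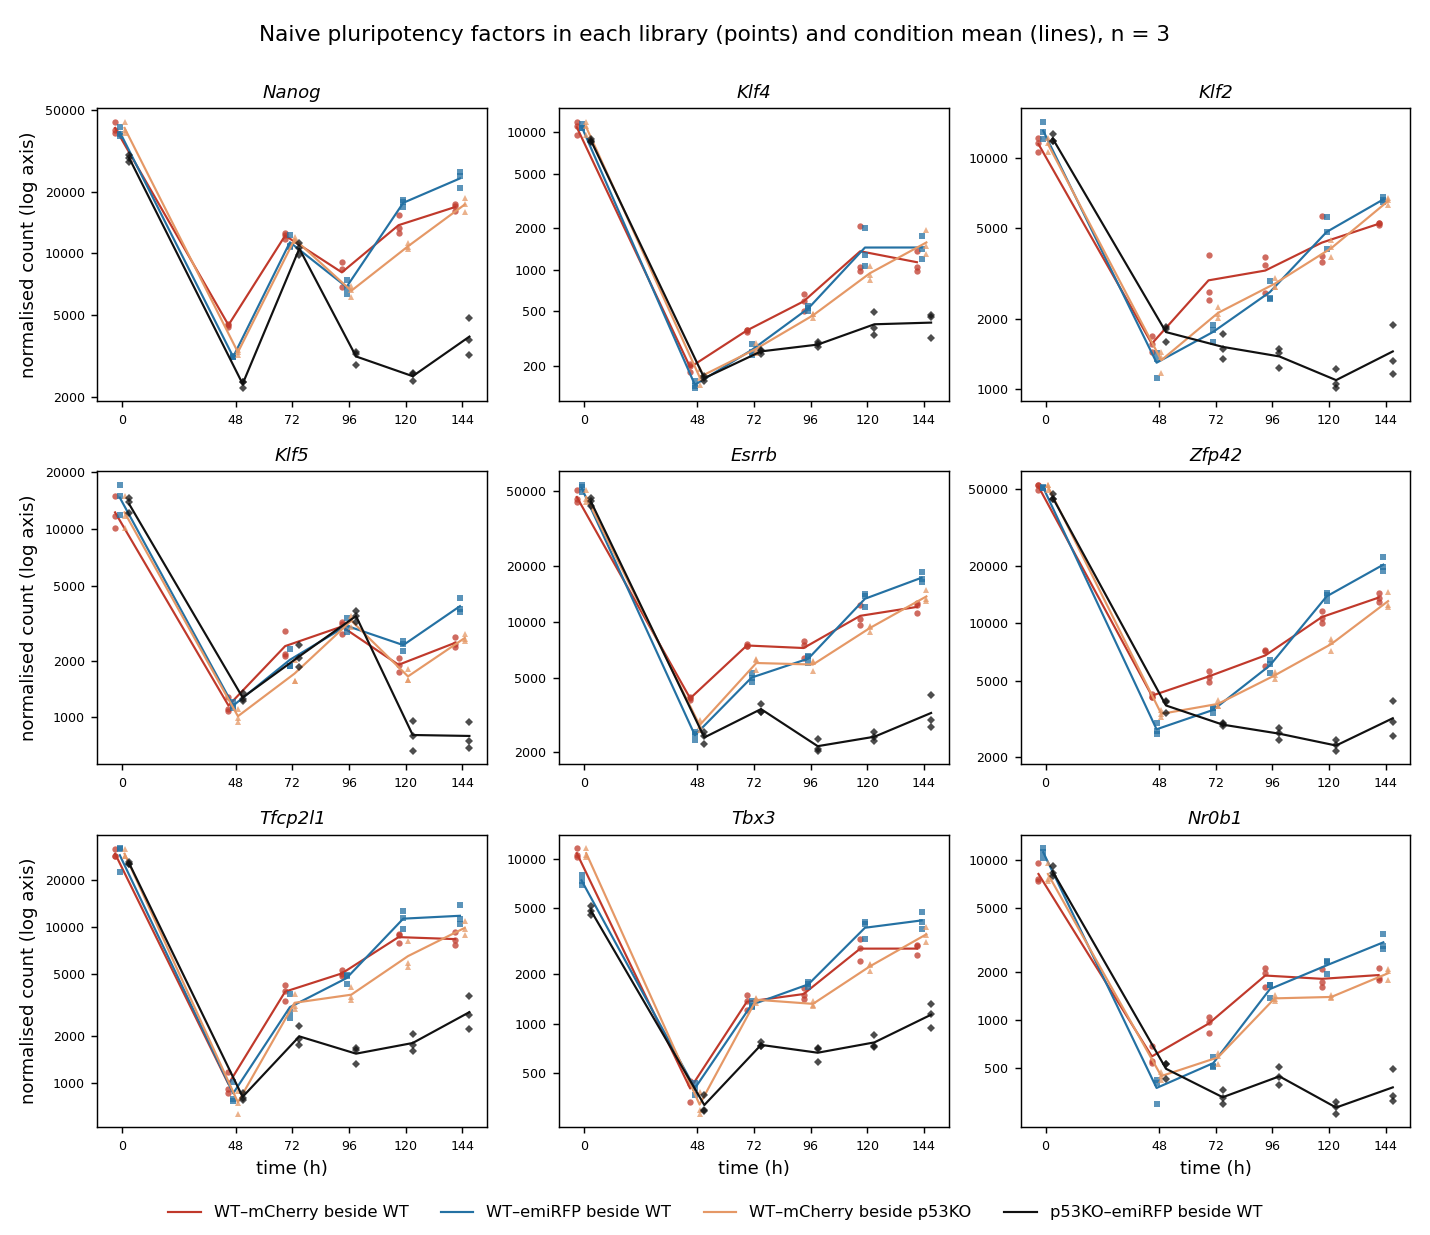
Normalised counts (log axis) of the 9 factors against time in hours, 1 panel per gene, for WT–mCherry and WT–emiRFP cells of WT + WT gastruloids and WT–mCherry and p53KO–emiRFP cells of WT + p53KO gastruloids, with points for libraries and lines through the means of 3. The 0 h WT–mCherry culture is drawn in both WT–mCherry series. At 120 and 144 h the p53KO–emiRFP libraries lie below all WT libraries of the same time point in all 9 panels.

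Nanog, a homeodomain factor that stabilises the naive state, rose early, to 72 h, and then fell before it rose again in WT cells. The WT–emiRFP libraries held 41554, 37562 and 38451 normalised counts at 0 h. They were down to 3114, 3152 and 3109.5 by 48 h and back at 20994, 23807 and 24983 by 144 h. For p53KO–emiRFP the 0 h values were 30351, 29202 and 28099. These libraries had 2346, 2368 and 2205 after 48 h and 3179.9, 3774 and 4819 after 144 h. At each of these times they lay below all WT–emiRFP libraries, and at 120 h the means were 2514 ± 119.5 in p53KO–emiRFP and 17682 ± 777 in WT–emiRFP cells (SD, n = 3). The clones overlapped at 72 h, with 10561 ± 695 in p53KO–emiRFP and 11341 ± 898 in WT–emiRFP cells. From 72 to 96 h Nanog fell in WT cells (-0.72 ± 0.05, log2 and SE) and in p53KO–emiRFP cells (-1.75 ± 0.09). The next step was a rise in WT cells (0.95 ± 0.05) and a fall in p53KO–emiRFP cells (-0.32 ± 0.09). WT–mCherry cells with WT neighbours went from 4470.2 ± 76 at 48 h through 12227 ± 376, 8085 ± 1132 and 13746 ± 1450.2 to 16868 ± 716 at 144 h. With p53KO neighbours they went from 3291 ± 93.3 at 48 h through 11732 ± 320.5, 6572 ± 410.2 and 10839 ± 370.5 to 17339 ± 1293 at 144 h.

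Esrrb, an orphan nuclear receptor that stands in for Nanog in self-renewal, was among the most expressed of the 9 in mES cells. Its WT–emiRFP libraries held 49696, 54215 and 52873 normalised counts at 0 h. By 48 h they had 2316, 2575 and 2489, and by 144 h 16375, 16881 and 18356. In p53KO–emiRFP libraries Esrrb was at 41609, 45992 and 44376 before aggregation. It was then at 2427, 2555 and 2196 after 48 h and 2711, 2971 and 4029.7 after 144 h. The clones overlapped at 48 h and did not overlap at 0 h or from 72 h on. Between these times, at 72, 96 and 120 h, the means were 5013 ± 292, 6332 ± 307 and 13263 ± 1168 in WT–emiRFP and 3396 ± 185, 2148 ± 164 and 2414 ± 132 in p53KO–emiRFP cells. From 72 to 96 h Esrrb fell in p53KO–emiRFP cells (-0.66 ± 0.09 (SE), adjusted p = 2.26e-08), and in WT cells the estimate was 0.09 ± 0.05 (SE), adjusted p = 0.143. In WT–mCherry cells with WT neighbours it went from 3878 ± 84 at 48 h through 7449 ± 138, 7219.5 ± 757 and 10744 ± 1421 to 11994 ± 787 at 144 h. With p53KO neighbours the course was from 2785 ± 178 at 48 h through 6000.1 ± 422, 5888 ± 373 and 9228 ± 373 to 13649 ± 945 at 144 h.

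Nr0b1, also called Dax1, is an atypical nuclear receptor that binds Pou5f1 and Esrrb, and it showed the largest gap between p53KO–emiRFP and WT–emiRFP cells among the 9 at 96, 120 and 144 h. At 48 h the WT–emiRFP libraries had 425, 404 and 301 normalised counts and the p53KO–emiRFP libraries 532, 530.1 and 427. At 72 h these were 516, 592 and 508 against 299, 326 and 364. All p53KO–emiRFP libraries thus lay above those of WT–emiRFP at 48 h, and from 72 h on all lay below. By 120 h WT–emiRFP libraries had 1936, 2301 and 2349 and p53KO–emiRFP libraries 287, 307 and 259. By 144 h the values were 2908, 2791 and 3465 against 337, 312 and 492. At that time p53KO–emiRFP cells held 12.4% of the WT–emiRFP mean (-3.01 ± 0.15 (SE), adjusted p = 1.16e-09). Before aggregation the means were 8153 ± 1159.9 in WT–mCherry, 11146 ± 785 in WT–emiRFP and 8462 ± 660.4 in p53KO–emiRFP cells. At 96 h they were 1560.3 ± 159.5 in WT–emiRFP and 445 ± 58.2 in p53KO–emiRFP cells. WT–mCherry cells with WT neighbours went from 593 ± 81 at 48 h through 949 ± 111, 1895 ± 264 and 1808 ± 245 to 1908 ± 179.9 at 144 h, and those with p53KO neighbours from 447 ± 23.2 at 48 h through 585 ± 48.4, 1365 ± 68.7 and 1393 ± 27.6 to 1958 ± 156 at 144 h.

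Tfcp2l1, a grainyhead-family factor downstream of Stat3, fell further than most of the others to 48 h and then rose at each step in the average of the WT populations. WT–emiRFP libraries had 22697, 32176 and 31727 normalised counts at 0 h. They fell to 770.3, 795 and 1011 by 48 h and were at 9738, 11479.6 and 12733 by 120 h. In p53KO–emiRFP libraries the 0 h values were 25392, 25297 and 25935. After 48 h they were 869, 777 and 801, and after 120 h 1603, 1763 and 2051. The clones overlapped at 0 and 48 h and were apart from 72 h on. The means of WT–emiRFP and p53KO–emiRFP cells were 3065 ± 570.3 and 1991 ± 284 at 72 h, and 4706 ± 358 and 1543 ± 192 at 96 h. By 144 h they were 11809 ± 1734 and 2848 ± 694. In WT–mCherry cells the course was from 986 ± 174 at 48 h through 3854 ± 446, 5045 ± 239 and 8619 ± 641 to 8368 ± 829 at 144 h with WT neighbours. It was from 753 ± 126 at 48 h through 3269.9 ± 377, 3685 ± 365 and 6510.3 ± 1408 to 9875 ± 1089.8 at 144 h with p53KO neighbours.

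Of the Krüppel-like factors, which share DNA motifs and can replace one another in self-renewal, Klf4 fell the most. Its WT–emiRFP libraries went from 10718, 10749.6 and 11547 normalised counts at 0 h to 139, 156 and 144 at 48 h, which was 1.33% ± 0.0779 (SD, n = 3) of the 0 h level. They reached 1072, 2005 and 1279 by 120 h and 1192, 1761 and 1406 by 144 h. In p53KO–emiRFP libraries Klf4 went from 8634, 8449 and 8969 to 156, 165 and 169 over the first 48 h. It was at 379, 491 and 337 by 120 h and at 320.4, 469.9 and 451 by 144 h. The p53KO–emiRFP libraries lay below WT–emiRFP at 0 h, above them at 48 h, overlapped with them at 72 h and lay below them from 96 h on. At 48 h the lowest p53KO–emiRFP library had 156.06 and the highest WT–emiRFP library 155.76. This difference did not pass the test (0.16 ± 0.12 (SE), adjusted p = 0.37, and adjusted p = 0.282 with the block). Replicate 2 was the highest of the 3 in all 4 sorted populations at 120 h. Means at 72 and 96 h were 261 ± 26.3 and 524 ± 23.3 in WT–emiRFP and 256 ± 8.14 and 287 ± 11 in p53KO–emiRFP cells. WT–mCherry cells with WT neighbours went from 196 ± 14.3 at 48 h through 363 ± 8.82, 590.1 ± 84.2 and 1365 ± 615 to 1136 ± 208 at 144 h, and those with p53KO neighbours from 167 ± 22.2 at 48 h through 267 ± 24.2, 467 ± 17.8 and 943 ± 112 to 1581 ± 333 at 144 h.

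Klf2 kept more of its 0 h level at 48 h than the other 8 in WT–emiRFP cells. Its WT–emiRFP libraries held 14386, 12946 and 12079 normalised counts at 0 h. At 48 h they held 1349, 1433 and 1118, and at 144 h 6464, 6814 and 6597. Those of p53KO–emiRFP held 11886, 11844 and 12758 before aggregation. They were at 1863, 1825 and 1604 after 48 h and at 1156, 1324 and 1884 after 144 h. The p53KO–emiRFP libraries overlapped with WT–emiRFP at 0 and 72 h, lay above them at 48 h and below them from 96 h on. At 72, 96 and 120 h the means were 1769 ± 149, 2631 ± 273 and 4790.4 ± 758 in WT–emiRFP and 1522 ± 194, 1384 ± 138 and 1093 ± 109 in p53KO–emiRFP cells. The mean was higher at each later time in WT–emiRFP cells and lower at each later time up to 120 h in p53KO–emiRFP cells. With WT neighbours, WT–mCherry cells went from 1572 ± 126 at 48 h through 2955 ± 728, 3258 ± 596 and 4306 ± 1143 to 5191 ± 60.2 at 144 h. With p53KO neighbours they went from 1332 ± 143 at 48 h through 2136 ± 127, 2857 ± 150.5 and 4077 ± 339 to 6517 ± 206 at 144 h.

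Klf5 was the exception at 96 h. WT–emiRFP libraries were at 2968, 3357 and 2849 normalised counts and p53KO–emiRFP libraries at 3214, 3674 and 3449, and the ranges overlapped (0.17 ± 0.08 (SE), adjusted p = 0.127, and adjusted p = 0.00757 with the replicate number as a block). By 120 h it was at 2258, 2441 and 2548 in WT–emiRFP and 662, 956 and 797 in p53KO–emiRFP libraries. By 144 h the libraries had 3614, 3765 and 4281 and 691, 749 and 948. At both of these times the p53KO–emiRFP libraries lay below all of WT–emiRFP. The fall from 96 to 120 h was -0.67 ± 0.07 in WT cells and -2.09 ± 0.13 in p53KO–emiRFP cells (log2, SE), and both passed the test. The means at 0, 48 and 72 h were 14643 ± 2679, 1153 ± 44 and 2018 ± 250.3 in WT–emiRFP cells. In p53KO–emiRFP cells they were 13508 ± 1265, 1273 ± 64.3 and 2105 ± 282. WT–mCherry cells with WT neighbours went from 1154 ± 113 at 48 h through 2386 ± 425, 3030.2 ± 232 and 1898 ± 161 to 2485 ± 148 at 144 h. Those with p53KO neighbours went from 1013 ± 84.3 at 48 h through 1706 ± 256, 3255 ± 228 and 1648 ± 139 to 2633 ± 124 at 144 h.

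Tbx3, a T-box factor that also acts in primitive endoderm and mesoderm, was the one factor whose libraries stood apart in all 3 clones before aggregation. At 0 h the libraries were at 11625, 10198 and 10553 normalised counts in WT–mCherry, 7323, 6895 and 7943 in WT–emiRFP and 4806, 4552 and 5159.5 in p53KO–emiRFP cells, with no overlap between any pair of clones. At 48 h WT–emiRFP libraries had 371, 409 and 437 and p53KO–emiRFP libraries 301, 367 and 295. By 72 h these were 1273, 1256 and 1374 against 770.2, 730.1 and 729. All p53KO–emiRFP libraries lay below those of WT–emiRFP at all 6 times. The 48 h difference did not pass the test (-0.34 ± 0.14 (SE), adjusted p = 0.0861, and adjusted p = 0.00741 with the block). At 144 h the values were 3745, 4152 and 4774 in WT–emiRFP and 939, 1149 and 1310.3 in p53KO–emiRFP libraries. Means at 96 and 120 h were 1729 ± 67.8 and 3812 ± 481 in WT–emiRFP and 666 ± 67.4 and 769.7 ± 77.3 in p53KO–emiRFP cells. With WT neighbours, WT–mCherry cells went from 405 ± 61 at 48 h through 1357 ± 141, 1511 ± 120.3 and 2848 ± 441 to 2849 ± 204 at 144 h. With p53KO neighbours Tbx3 went from 323 ± 56.3 at 48 h through 1396 ± 49.9, 1317 ± 52.2 and 2221 ± 113 to 3480.0 ± 357 at 144 h.

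Zfp42, also called Rex1, is a zinc finger protein whose loss of expression is used as a mark of exit from the naive state. WT–emiRFP libraries held 50825, 51451 and 50815 normalised counts at 0 h. After 48 h they held 2665, 3015 and 2733, and after 144 h 19736, 18665 and 22251. In p53KO–emiRFP libraries the 0 h values were 44235, 47132 and 44373. By 48 h they were 3871, 3925 and 3397, and by 144 h 2599, 3075 and 3929.8. The p53KO–emiRFP libraries lay above WT–emiRFP at 48 h only, and below them at the other 5 times. The 0 h difference did not pass the test (-0.17 ± 0.07 (SE), adjusted p = 0.229, and adjusted p = 0.146 with the block). At 72, 96 and 120 h the means were 2965 ± 56.3, 2659 ± 187 and 2307 ± 145 in p53KO–emiRFP cells, against 3539.6 ± 109, 6038 ± 467 and 13823 ± 646 in WT–emiRFP cells. WT–mCherry cells with WT neighbours went from 4196 ± 97 at 48 h through 5284 ± 336, 6801 ± 674 and 10787 ± 792 to 13617 ± 682 at 144 h. With p53KO neighbours Zfp42 went from 3374 ± 146 at 48 h through 3804 ± 178, 5354 ± 236 and 7804 ± 559 to 13051 ± 1353 at 144 h.

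Ordered by mean over the 23 conditions, each factor was highest in the 3 mES cell cultures. Among the 20 gastruloid conditions, WT–emiRFP cells at 144 h had the highest mean for 8 of the 9, and for Klf4 it was WT–mCherry cells beside p53KO cells at 144 h. For Nanog, Esrrb, Zfp42 and Nr0b1 the highest gastruloid condition did not overlap with the next, and for the other 5 it did. The lowest condition was a p53KO–emiRFP one for 7 of the 9, the exceptions being Klf4 with WT–emiRFP cells at 48 h and Tfcp2l1 with WT–mCherry cells beside p53KO cells at 48 h. Of the 22 pairs of neighbours in each gene's order, 13 to 19 had overlapping libraries, the most for Klf5.

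The first question was how the factors changed with time. In WT cells, for which the 3 sorted WT populations (both WT clones at 0 h) were averaged, 9 of 9 fell from 0 to 48 h, where 37.2% of all genes tested fell. The falls ran from -3.14 for Klf2 to -6.02 for Klf4, with a median of -4.05 against -0.033 over all genes. From 48 to 72 h 9 of 9 rose, where 32.8% of all genes rose, with the largest rises for Tfcp2l1 (1.98 ± 0.09), Tbx3 (1.85 ± 0.07) and Nanog (1.71 ± 0.05) and the smallest for Zfp42 (0.28 ± 0.05). From 72 to 96 h 7 rose (background 30.5%), Nanog fell (background 28.2%) and Esrrb did not pass, and Nr0b1 had the largest rise (1.25 ± 0.07). From 96 to 120 h 7 rose (background 28.9%), led by Klf4 (1.23 ± 0.10), Klf5 fell (background 28%) and Nr0b1 had 0.15 ± 0.07 (SE), adjusted p = 0.0625. From 120 to 144 h 8 rose (background 28.7%) by up to 0.58 for Klf5, and Klf4 had 0.16 ± 0.10 (SE), adjusted p = 0.165. The median over the 9 was 0.87, 0.39, 0.80 and 0.37 in these 4 steps, against -0.0178, 0.00594, 0.00241 and 0.0105 over all genes.

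In p53KO–emiRFP cells 9 of 9 also fell from 0 to 48 h (background 31.2%), with a median of -3.92, and the later steps went both ways. From 48 to 72 h 6 rose (background 23.1%), led by Nanog (2.20 ± 0.09), while Zfp42 (-0.33 ± 0.09) and Nr0b1 (-0.59 ± 0.14) fell (background 23.3%) and Klf2 did not pass. From 72 to 96 h Klf5 (0.71 ± 0.13) and Nr0b1 (0.44 ± 0.14) rose (background 22.4%), and Nanog (-1.75 ± 0.09), Esrrb (-0.66 ± 0.09) and Tfcp2l1 (-0.36 ± 0.15) fell (background 22.2%). From 96 to 120 h only Klf4 rose (0.49 ± 0.20 (SE), adjusted p = 0.0433, background 18.9%), and Klf5 (-2.09 ± 0.13), Nr0b1 (-0.65 ± 0.14) and Nanog (-0.32 ± 0.09) fell (background 16.1%). The replicate block added Zfp42 as lower in this step (-0.21, adjusted p = 0.0576 without and 0.0499 with the block). From 120 to 144 h 7 rose, all but Klf4 and Klf5, by 0.41 for Klf2 to 0.66 for Tfcp2l1 (background 13%). At 144 h replicate 3 of p53KO–emiRFP was the highest of the 3 for 8 of the 9 factors, and without replicate 3, 4 of the 9 factors were called in this step. Without replicate 1, 3 factors were called from 72 to 96 h.

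The difference between the courses was tested as the change in p53KO–emiRFP cells minus the change in WT–emiRFP cells. From 96 to 120 h it was below 0 and past the threshold for 9 of 9, where 13.9% of all genes were, at -1.75 for Klf5 to -0.90 for Esrrb, with a median of -1.14 against 0.0292 over all genes. From 72 to 96 h it was for 8 of 9 (background 5.53%), all but Klf5 (0.11 ± 0.18 (SE), adjusted p = 0.782), from -0.56 for Tbx3 to -1.09 for Nr0b1. Earlier, Zfp42 (0.58 ± 0.12) and Nr0b1 (0.79 ± 0.18) fell less in p53KO–emiRFP cells from 0 to 48 h (background 2.77%). From 48 to 72 h Zfp42, Esrrb and Nr0b1 were below 0, at -0.67, -0.52 and -1.10 (background 1.13%), and the replicate block added Tfcp2l1 (-0.55, adjusted p = 0.276 without and 0.0414 with the block). From 120 to 144 h Tfcp2l1 was above 0 (0.60 ± 0.21 (SE), adjusted p = 0.0394, background 10.3%) and Klf5 below (-0.71 ± 0.19 (SE), adjusted p = 0.00423, background 6.63%), and the other 7 did not pass. No factor was called from 120 to 144 h without replicate 2, or from 0 to 48 h without replicate 1. Only 1 was called from 120 to 144 h without replicate 1, and 1 from 0 to 48 h without replicate 2. Without replicate 1, and likewise without replicate 2, 1 was called from 48 to 72 h and 5 from 72 to 96 h.

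**Figure D2:**
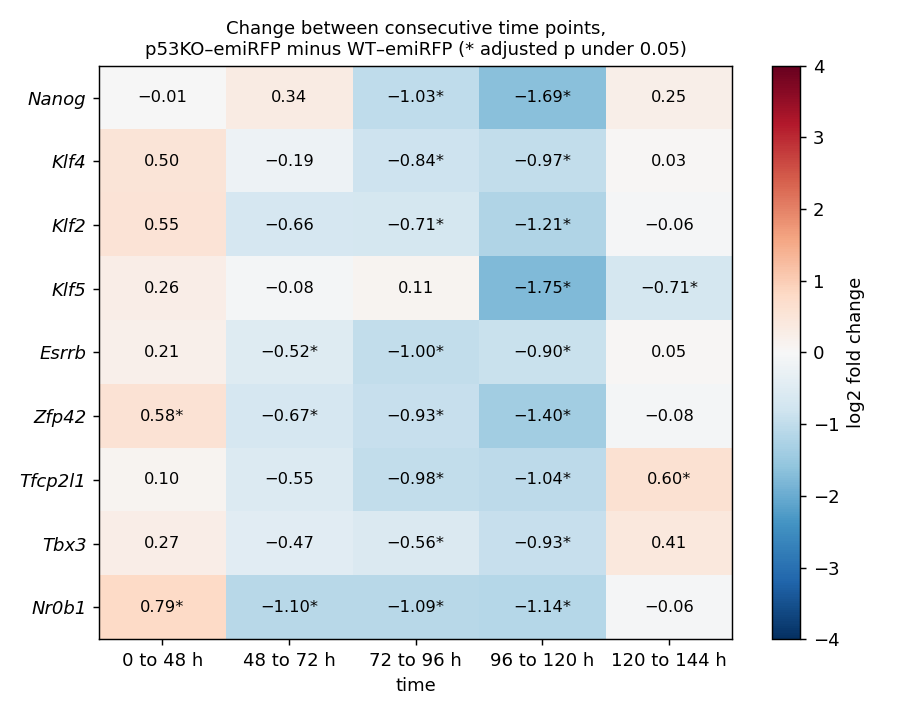
Log2 fold change between consecutive time points in p53KO–emiRFP cells minus that in WT–emiRFP cells for the 9 factors, with colour from blue (below 0) to red (above 0) and a star for an adjusted p under 0.05. The column from 96 to 120 h has a star in all 9 rows, and the column from 72 to 96 h in all rows but Klf5.

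The next question was how p53KO–emiRFP cells differed from their parental clone at each time point. At 0 h 4 of the 9 were lower in p53KO–emiRFP cells, where 4.16% of all genes tested were lower: Tbx3 (-0.61 ± 0.09 (SE), adjusted p = 0.000965), Nanog (-0.42 ± 0.08 (SE), adjusted p = 0.00735), Nr0b1 (-0.40 ± 0.11 (SE), adjusted p = 0.0411) and Klf4 (-0.34 ± 0.09 (SE), adjusted p = 0.0372). The median of the 9 was -0.25 against -0.0111 over all genes, with 9 of 9 estimates below 0. The replicate block added Esrrb (adjusted p = 0.0389, background 6.23% with the block), and without replicate 2 no factor was called at 0 h, and without replicate 3 only 1 was. At 48 h the direction was mixed. Klf2 (0.44 ± 0.10 (SE), adjusted p = 0.00434), Zfp42 (0.41 ± 0.06 (SE), adjusted p = 0.000208) and Nr0b1 (0.39 ± 0.13 (SE), adjusted p = 0.0396) were higher, where 10.3% of all genes were, and Nanog was lower (-0.44 ± 0.05 (SE), adjusted p = 4.34e-06), where 11.7% were. With the block Klf5 was also higher (adjusted p = 0.0484, background 22.3%) and Tbx3 lower (background 18.8%), and without replicate 1, 2 factors were called.

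From 72 h on, the factors that passed without the replicate block were lower in p53KO–emiRFP cells. With it, Klf5 at 96 h passed as higher (0.17, adjusted p = 0.00757 with the block). At 72 h Tbx3 (-0.81 ± 0.08), Nr0b1 (-0.71 ± 0.11), Tfcp2l1 (-0.62 ± 0.13), Esrrb (-0.56 ± 0.06) and Zfp42 (-0.26 ± 0.06) were lower, 5 of 9 (background 15.7%), while Nanog, Klf2, Klf4 and Klf5 did not pass. At 96 h 8 of 9 were lower (background 13.8%), from -0.87 for Klf4 to -1.80 for Nr0b1, and Klf5 is the exception described above. At 120 h 9 of 9 were lower (background 23.7%), from -1.58 ± 0.11 (SE), adjusted p = 6.42e-08 for Klf5 to -2.95 ± 0.11 (SE), adjusted p = 1.31e-10 for Nr0b1, with a median of -2.46 against 0.0456 over all genes. At 144 h 9 of 9 were lower again (background 32.2%), from -1.81 for Klf4 to -3.01 for Nr0b1. In p53KO–emiRFP cells the levels at 144 h were 12.4% (Nr0b1) to 28.5% (Klf4) of those in WT–emiRFP cells. The 9 groups of p53KO–emiRFP libraries did not overlap with those of WT–emiRFP at 120 or 144 h, where 27.4% and 35.2% of all genes tested likewise had every p53KO–emiRFP library below every WT–emiRFP library. Each of the 9 was thus lower in 3 of 3 pairs of libraries with the same number.

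**Figure D3:**
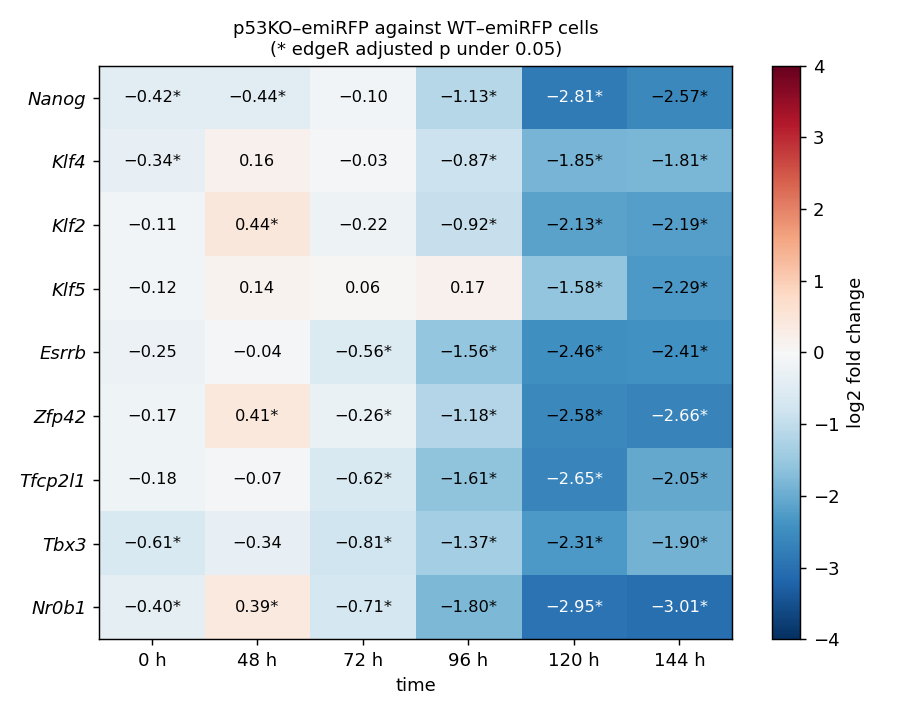
Log2 fold change of the 9 factors in p53KO–emiRFP against WT–emiRFP cells at each time point, with colour from blue (lower in p53KO–emiRFP) to red (higher) and a star for an adjusted p under 0.05. The columns hold 4, 4, 5, 8, 9 and 9 stars from 0 to 144 h.

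Other genes of the network, counted over lists that were chosen with earlier results known, are set beside these values. The counts of these lists, and of the cell type markers after them, are from the fit without the replicate block only. Of the core pluripotency genes, 5 of the 6 listed were tested, all but Foxd3, and 5 of 5 were lower in p53KO–emiRFP cells at 120 h and at 144 h, where 23.7% and 32.2% of all genes tested were. Pou5f1, the core factor Oct4, went from 25302 to 33951 normalised counts in WT–emiRFP libraries at 72 h to 9284 to 11308 at 120 h, and from 28513 to 31672 to 2469 to 3301 in p53KO–emiRFP libraries (-1.86 ± 0.15 (SE), adjusted p = 2.02e-07 at 120 h). At 72 h none of the 5 passed in edgeR, none had an unadjusted p under 0.05, and DESeq2 called 0, with a difference of 0.04 ± 0.09 for Pou5f1. Sox2, its partner on DNA, was at 11176 to 13153 in WT–emiRFP and 4748 to 5219 in p53KO–emiRFP libraries at 120 h (-1.27 ± 0.08 (SE), adjusted p = 1.4e-08). Of 15 other naive-associated genes 11 were lower at 96 h (background 13.8%) and 14 at 120 and 144 h, among them Prdm14 (-3.00 at 144 h), Tcl1 (-2.91) and Dppa2 (-2.63). The one higher gene was Gbx2 (0.99 at 120 h and 2.07 at 144 h), named after its values were seen. The list's median was -2.31 at 120 h and -2.40 at 144 h.

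In the LIF–STAT3 pathway, the ligand Lif was lower in p53KO–emiRFP cells at all 6 times (lowest at 72 h, -3.96, and -3.48 to -2.93 at the other gastruloid times), at 29.8 to 45.4 normalised counts against 522 to 615 in WT–emiRFP libraries at 72 h. Of the 7 genes of the pathway, 2 were higher and 2 lower at 48 h (background 10.3% and 11.7%), with a median of -0.02. The receptor subunits Lifr (0.50) and Il6st (0.38) were the higher ones, and the kinase gene Jak2 (-0.21), named after its values were seen, was lower beside Lif. At 120 h 2 were higher and 3 lower (background 27.3% and 23.7%), among them Jak2 (0.66) as higher and Lifr (-0.76) as lower. Of the formative genes, 5 of 7 were higher in p53KO–emiRFP mES cells at 0 h (background 1.97%), led by Fgf5 (1.12 ± 0.23 (SE), adjusted p = 0.0111), Otx2 (1.00) and Pou3f1 (0.88). At 144 h 4 of the 7 were lower, with Fgf5 at -2.47, Otx2 at -1.90 and Pou3f1 at -1.70, and 1 higher, where 32.2% of all genes were lower and 33.2% higher. Regulators of the exit from the naive state had 3 of 8 called at 48 h, with Flcn (-0.37) and Fnip1 (-0.37), which hold Tfe3 out of the nucleus, lower and Etv4 (0.31) higher (background 11.7% lower and 10.3% higher), and 4 lower and 1 higher at 144 h, against the same 32.2% and 33.2% of all genes. Among 14 paralogues of the 9 factors 6 were lower (background 32.2%) and 6 higher (background 33.2%) at 144 h, with the largest change in Klf9 (-1.89) and a median of -0.04.

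Markers of other cell types differed between the clones as well, in both directions. All 6 germ cell markers, of which Prdm14 and Dppa3 are also counted among the naive-associated genes, were lower in p53KO–emiRFP cells at 120 and 144 h (background 23.7% and 32.2%). Their sum was 9991 to 11089 in WT–emiRFP and 2644 to 2723 in p53KO–emiRFP libraries at 120 h, and 13298 to 14073 and 3467 to 4133 at 144 h, with no marker at 0. In the mES cell cultures at 0 h the sum was already 9701 to 10515 in WT–emiRFP and 10495 to 11304 in p53KO–emiRFP libraries. A sum of this size was thus not particular to gastruloids. Endothelial markers summed to 7944 to 8214 and 1881 to 2349 at 144 h, with 7 of 9 lower (background 32.2%) and none at 0. In the cultures at 0 h they summed to 5223 to 6019 in WT–emiRFP and 4597 to 6045 in p53KO–emiRFP libraries. The 4 gastruloid axis markers were higher, 3 of them at 120 h (background 27.3%) and 4 at 144 h (background 33.2%), with sums at 144 h of 2558 to 3650.3 in WT–emiRFP and 21812 to 26999.8 in p53KO–emiRFP libraries. Endoderm markers summed to 383 to 815 and 743 to 954, and lateral plate and cardiac markers to 863 to 1329 and 684 to 752. Their part in the levels of the 9 factors was not tested.

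**Figure D4:**
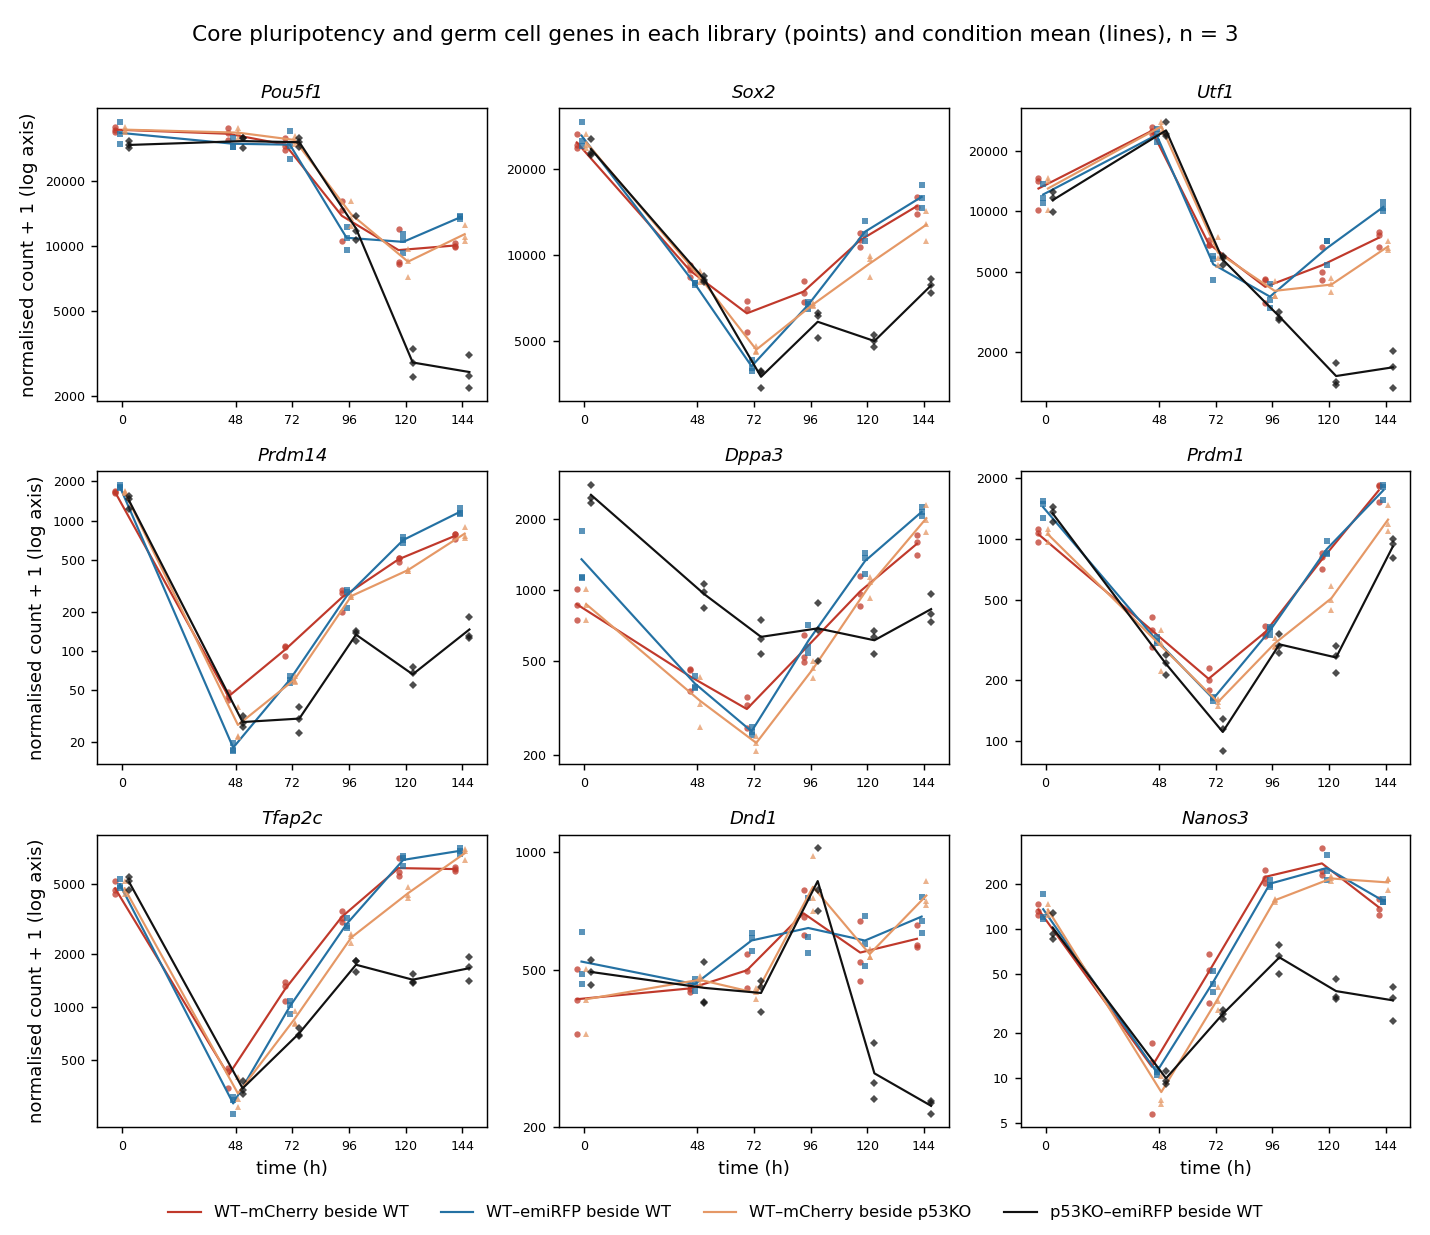
Normalised counts plus 1 (log axis) of core pluripotency and germ cell genes against time in hours, with points for libraries and lines through the means of 3, in the colours of the 4 sorted populations. The Pou5f1 libraries of p53KO–emiRFP lie below all WT libraries at 120 and 144 h.

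To look at the factors in WT cells by neighbour, WT–mCherry cells beside p53KO cells were compared with WT–mCherry cells beside WT cells. The mosaics also differed in the number of neighbour cells seeded, 25 against 150. The genotype of the neighbours cannot be told apart from this number or from the ratio of the clones. This comparison shares its control libraries with the one between the WT clones. The counts that follow first are from the fit without the replicate block, and those with it are given after them. At 48 h Esrrb (-0.48 ± 0.06 (SE), adjusted p = 0.00468) and Nanog (-0.44 ± 0.04 (SE), adjusted p = 0.000411) were lower beside p53KO cells, 2 of 9, where 0.0736% of all genes tested were lower. At 72 h Nr0b1 (-0.70 ± 0.10 (SE), adjusted p = 0.00845), Zfp42 (-0.47 ± 0.06 (SE), adjusted p = 0.00171) and Esrrb (-0.31 ± 0.06 (SE), adjusted p = 0.0424) were lower (background 0.327%). At 96 h they were Nr0b1 (-0.47 ± 0.11), Tfcp2l1 (-0.45 ± 0.09), Zfp42 (-0.34 ± 0.08) and Esrrb (-0.29 ± 0.08), 4 of 9 (background 1.05%), and at 120 h Zfp42 (-0.47 ± 0.07), Nr0b1 (-0.38 ± 0.10) and Nanog (-0.34 ± 0.07) (background 2.52%). The median of the 9 was -0.33, -0.44, -0.30 and -0.36 at these times, against -0.0141, 0.00378, 0.00414 and -0.00749 over all genes.

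As an example of the libraries behind this, Zfp42 at 72 h was at 3699.8, 3702 and 4009 beside p53KO cells and 5269, 4956 and 5627 beside WT cells, with no overlap. Nanog at 48 h was at 3197, 3384 and 3293 and 4385, 4494 and 4532, also without overlap, while at 72 h its libraries overlapped. At 144 h edgeR called 0 of the 9, where 25.6% of all genes were called in either direction, 3 had an unadjusted p under 0.05 and DESeq2 called 2. The median was then 0.19, and 8 of 9 estimates were above 0, from 0.04 for Nr0b1 to 0.47 for Klf4.

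With the replicate number as a block, 7, 5 and 7 were lower at 48, 72 and 96 h, where the block called 3.69%, 1.11% and 9.19% of all genes lower. At 144 h 5 were higher (background 15.1% with the block), namely Klf4, Tbx3, Tfcp2l1, Klf2 and Esrrb (adjusted p = 0.000103 to 0.0471 with the block). Without replicate 1, and likewise without replicate 2, no factor was called at 48, 72 or 96 h, and 1 was called at 120 h, and without replicate 3 1 was called at 144 h. H2bc14, as a percentage of its level in the p53KO–emiRFP library of the same replicate number, was 0.299%, 0.365% and 0.41% in the 3 WT–mCherry libraries at 48 h. It was 7.46%, 3.01% and 6.66% by 120 h, with 16.9%, 2.39% and 9.23% by 144 h. Beside WT cells it was at most 2.12% of the WT–emiRFP level. After subtraction of that share of the p53KO–emiRFP values, an alternative chosen after seeing the data, the log2 ratios moved by at most 0.0209 up to 96 h, by 0.0491 to 0.0717 at 120 h and by 0.103 to 0.136 at 144 h. The number of factors with a ratio below 0 stayed at 9, 8, 8 and 9 from 48 to 120 h, and went from 1 to 0 at 144 h.

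**Figure D5:**
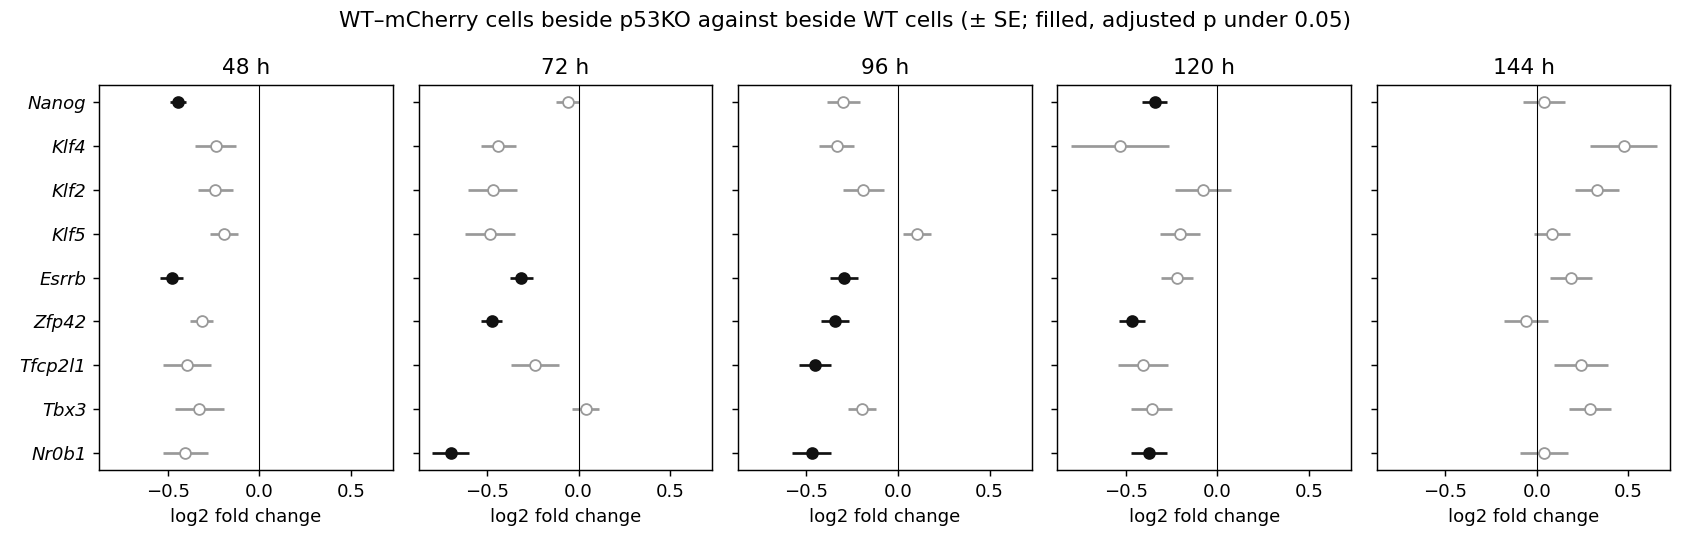
Log2 fold change (± SE) of the 9 factors in WT–mCherry cells beside p53KO cells against WT–mCherry cells beside WT cells, 1 panel per time point, with filled points for an adjusted p under 0.05. Filled points number 2, 3, 4, 3 and 0 from 48 to 144 h, and all of them lie below 0.

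For the other lists in the same WT–mCherry cells the counts are from the fit without the replicate block only. In that fit edgeR called none of the 15 other naive-associated genes at 48 h, where 10 had an unadjusted p under 0.05 and DESeq2 called 4. Of these genes 7 were lower beside p53KO cells at 72 h, led by Tcl1 (-0.77), Prdm14 (-0.77) and Nr5a2 (-0.58), where 0.327% of all genes were. At 96 h 1 was lower, Dppa2 (-0.43, background 1.05%), and at 120 h 3 were, led by Jam2 (-1.02, background 2.52%). At 144 h 3 were higher and 1 lower, where 25.6% of all genes were called, 1959 higher and 2999 lower of 19391. Of the core genes Tdgf1 was lower at 48 h (-0.41) and higher at 120 h (0.31), Sox2 was lower at 72 h (-0.42), and Pou5f1, which passed at none of the 5 times in edgeR, had -0.18 at 120 h and 0.17 at 144 h. Germ cell markers summed to 6728 to 7615 beside p53KO cells and 8451 to 10471 beside WT cells at 120 h, and to 11304 to 13164 and 10613 to 11089.7 at 144 h. At 144 h 4 of the 6 were higher and Prdm1, named after its values were seen, was lower (-0.48). Of all 19391 genes tested then, 1959 were higher and 2999 lower. In WT–mCherry mES cell cultures the germ cell markers summed to 8383 to 9395. The 4 gastruloid axis markers summed to 21167 to 22573 and 14054 to 18293 at 120 h, and the 9 endothelial markers to 2866 to 3386 and 3934 to 4789.6. Their part in the differences of the 9 factors was not tested.

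The pair of WT clones, from WT + WT gastruloids and at 0 h from cultures, gives the size of differences with no difference in Trp53 genotype. In gastruloids these clones shared the mosaic and the number of cells seeded, which p53KO–emiRFP and WT–emiRFP cells did not. At 0 h Tbx3 was lower (-0.55 ± 0.09 (SE), adjusted p = 0.00239, background 4.51%) and Nr0b1 higher (0.45 ± 0.11 (SE), adjusted p = 0.0171, background 6.55%) in WT–emiRFP than in WT–mCherry cells, with none called without replicate 2 and 1 without replicate 3. At 48 h Esrrb (-0.66 ± 0.06), Nr0b1 (-0.65 ± 0.13), Zfp42 (-0.58 ± 0.06), Nanog (-0.52 ± 0.05) and Klf4 (-0.42 ± 0.11) were lower (background 4.71%), and at 72 h Nr0b1 (-0.82 ± 0.10), Klf2 (-0.74 ± 0.14), Zfp42 (-0.58 ± 0.06), Esrrb (-0.57 ± 0.06) and Klf4 (-0.47 ± 0.10) (background 3.3%). At 96 h edgeR called 0 of the 9, where 2.15% of all genes were called, 6 had an unadjusted p under 0.05, DESeq2 called 0, and the block called 5 as lower and Tbx3 as higher (background 7.18% and 8.77% with the block). Later the sign turned. At 120 h Nanog (0.36 ± 0.07 (SE), adjusted p = 0.0231) and Zfp42 (0.36 ± 0.07 (SE), adjusted p = 0.0253) were higher in WT–emiRFP cells (background 0.704%), with neither called without replicate 1 or without replicate 3, and the block called 7 as higher (background 5.23% with the block). At 144 h 8 of 9 were higher (background 10.8%), all but Klf4, from 0.35 for Klf2 to 0.68 for Nr0b1, and the block added Klf4 (adjusted p = 0.00101, background 16.5% with the block). The block also added Klf2 and Tfcp2l1 as lower at 48 h (background 16.6% with the block). Without replicate 1 or without replicate 2, 3 were called at 48 h, without replicate 1, 3 at 72 h, and without replicate 2, 5 at 144 h. Side by side, the estimates for the 9 factors at 120 and 144 h ran from 0.09 to 0.68 between the WT clones, from -0.53 to 0.47 by neighbour and from -3.01 to -1.58 for p53KO–emiRFP against WT–emiRFP cells. These comparisons share libraries.

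The 9 factors shared much of their course. Over the 20 gastruloid condition means, Pearson's r of log2(normalised count + 1) between members was 0.503 to 0.996 with a median of 0.873, which is a description over conditions that share clones, time points and mosaics. Among 12620 genes with a mean of at least 100 normalised counts, those with the course most like each factor were Kyat3 for Nanog (r = 0.951), Manba for Esrrb (0.983), Cobl for Nr0b1 (0.96), Pcsk6 for both Tfcp2l1 (0.974) and Tbx3 (0.976), Mobp for Klf4 (0.985), Gpx4 for Klf2 (0.974) and Ttc39b for Klf5 (0.946). The next in line were Ckb and Gcm1 for Nanog, Lima1 and Lactb2 for Esrrb, Nr5a2 and Mymx for Nr0b1, Mfsd12 and Stard8 for Tfcp2l1, Stard8 and Tmem184b for Tbx3, Llgl2 and Zfp607b for Klf4, Lima1 and Zfp42-ps1 for Klf2, and Ccdc141 and Zfp59 for Klf5. For Zfp42 the first was its processed copy Zfp42-ps1 (0.997), which may share reads with it, and Hspb1 (0.979) and Triml1 (0.975) followed. With the 3 mES cell cultures added, 23 conditions, the leading gene changed for Nanog (Lactb2), Klf4 (Tmem64), Klf2 (Nr5a2), Klf5 (Zfp59), Tfcp2l1 (Mylpf), Tbx3 (Stard8) and Nr0b1 (Manba), and remained Manba for Esrrb and Zfp42-ps1 for Zfp42.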

How the data were processed

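RNA of mES cell clones and of cells sorted from mosaic gastruloids was sequenced by the authors after poly(A) enrichment and stranded library preparation. Per the paper's methods and the submitters' processing notes, the authors trimmed reads with Trim Galore 0.6.7, aligned them to GRCm38.p6 with STAR 2.7.11b and counted uniquely mapped reads per gene with STAR. The deposited values are raw counts per gene symbol, with 1 column for each of the 69 libraries, all of which were used. Library totals were 26722541 to 72981570.0 counts. No pair of replicates had equal counts in more than 6.31% of genes.

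The sample labels gave the groups and the replicate numbers. Counts were scaled by median-of-ratios size factors computed over the 69 libraries together. R 4.3.3, edgeR 4.0.16 (quasi-likelihood test), limma 3.58.1 and DESeq2 1.42.0 (an alternative) were used. Genes were filtered with filterByExpr by group, and Benjamini-Hochberg adjustment over the tested genes was used with a threshold of 0.05. Populations of a time point were compared in a fit of its 12 libraries (9 at 0 h, 8 residual degrees of freedom in gastruloids), and time points and their differences in a fit of all 69 (46 degrees of freedom). The steps were tested on simulated data.

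The 9 factors and the gene lists were chosen with earlier results of these data known. Named are all 9 factors, Pou5f1, Sox2, up to 3 genes per list with the largest changes past the threshold, the 3 genes most like each factor, and Trp53 and H2bc14 as checks. Gbx2, Prdm1 and, at 48 h, Jak2 were named after their values were seen. Levels per length used exon lengths of Gencode vM21, and motifs were searched on both strands. The paper states that the RNA came from separate experiments. As a check of pairing, each library's deviation from its group mean (genes averaging 50 counts or more) was compared between libraries with the same number. The deviations correlated at over 0.1 in 48 of 51 pairs within a time point (0.0406 to 0.688) and in 42 of 57 between consecutive times, and numbers were taken as pairs where all 3 pairs of a comparison passed 0.1. That held for p53KO–emiRFP against WT–emiRFP cells at all times, for the comparison by neighbour except at 120 h, for the WT clones at 48, 96, 120 and 144 h, for the step from 48 to 72 h in each population, for the steps from 72 to 96 and 96 to 120 h in p53KO–emiRFP cells, and for the difference of changes from 48 to 72 and 96 to 120 h. The alternatives changed the scaling (TMM, or CPM for levels), dropped the filter, added the replicate number as a block, fitted the compared groups alone or all 69 libraries, replaced edgeR by DESeq2, asked for an absolute log2 fold change of 1, left out each replicate, used the longest transcript or all 23 conditions, or subtracted emiRFP RNA.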

Additional observations from a re-analysis of the deposited data

Results flagged for a closer look

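The difference in change between p53KO–emiRFP and WT–emiRFP cells passed edgeR's test for an interaction, with adjusted p-values over all genes, for 24 of the 45 combinations of factor and step in time, and each is given as log2 with the sign of p53KO–emiRFP minus WT–emiRFP. No explanation was tested. From 0 to 48 h the difference was 0.58 for Zfp42 and 0.79 for Nr0b1, both of which fell in both clones. From 48 to 72 h it was -0.67 for Zfp42, -0.52 for Esrrb and -1.10 for Nr0b1.

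From 72 to 96 h the naive factors parted in 8 of 9 cases, with -0.98 for Tfcp2l1, -0.84 for Klf4, -0.56 for Tbx3, -1.03 for Nanog, -0.93 for Zfp42, -0.71 for Klf2, -1.0 for Esrrb and -1.09 for Nr0b1. In the step from 96 to 120 h all 9 passed, with -1.04 for Tfcp2l1, -0.97 for Klf4, -0.93 for Tbx3, -1.69 for Nanog, -1.40 for Zfp42, -1.21 for Klf2, -0.90 for Esrrb, -1.75 for Klf5 and -1.14 for Nr0b1. From 120 to 144 h Tfcp2l1 had 0.60 and Klf5 -0.71. Groups of 3 libraries were too small for the search for single outlying libraries.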

How the results depend on the processing

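The 9 factors were counted in 32 comparisons under the alternatives, except that the fit of all 69 libraries was tried only within time points, since the comparisons over time already use it, and no alternative reversed a difference that passed the test. Each pair of numbers gives the factors called under the alternative against those reported. With TMM scaling the count moved by over 1.5 times by neighbour 1 against 0 (144 h). With all 69 libraries in the fit of a time point the counts that moved were by neighbour 5 against 3 (120 h), 2 against 0 (144 h). With only the compared groups in the fit they were by neighbour 1 against 3 (120 h), 2 against 0 (144 h), between the WT clones 0 against 2 (120 h), for the difference of changes 4 against 2 (0 to 48 h), 1 against 2 (120 to 144 h). DESeq2 gave by neighbour 6 against 3 (72 h), 5 against 3 (120 h), 2 against 0 (144 h), between the WT clones 4 against 2 (120 h). Without the low-count filter the counts were by neighbour 5 against 2 (48 h), 6 against 3 (72 h), 7 against 3 (120 h), 5 against 0 (144 h), between the WT clones 4 against 0 (96 h), 7 against 2 (120 h), over time in p53KO–emiRFP cells 7 against 4 (96 to 120 h), for the difference of changes 4 against 2 (0 to 48 h), 7 against 3 (48 to 72 h). With a minimum absolute log2 fold change of 1 they were for p53KO–emiRFP against WT–emiRFP cells 0 against 4 (0 h), 0 against 4 (48 h), 0 against 5 (72 h), by neighbour 0 against 2 (48 h), 0 against 3 (72 h), 0 against 4 (96 h), 0 against 3 (120 h), between the WT clones 0 against 2 (0 h), 0 against 5 (48 h), 0 against 5 (72 h), 0 against 2 (120 h), 0 against 8 (144 h), over time in WT cells 4 against 9 (48 to 72 h), 1 against 8 (72 to 96 h), 1 against 8 (96 to 120 h), 0 against 8 (120 to 144 h), over time in p53KO–emiRFP cells 3 against 8 (48 to 72 h), 1 against 5 (72 to 96 h), 1 against 4 (96 to 120 h), 0 against 7 (120 to 144 h), for the difference of changes 0 against 2 (0 to 48 h), 1 against 3 (48 to 72 h), 2 against 8 (72 to 96 h), 0 against 2 (120 to 144 h). The replicate number as a block gave by neighbour 7 against 2 (48 h), 5 against 3 (72 h), 7 against 4 (96 h), 7 against 3 (120 h), 5 against 0 (144 h), between the WT clones 6 against 0 (96 h), 7 against 2 (120 h). The replicate numbers paired the libraries in the comparisons named in the methods, and the others, among them the comparison by neighbour at 120 h, come from libraries that share only a number. For the difference of changes from 120 to 144 h the block gave 3 against 2. The block changed no other count by more than 1.5 times. Leaving out each replicate in turn gave for p53KO–emiRFP against WT–emiRFP cells 0 to 5 against 4 (0 h), 2 to 3 against 4 (48 h), by neighbour 0 to 2 against 2 (48 h), 0 to 3 against 3 (72 h), 0 to 6 against 4 (96 h), 1 to 2 against 3 (120 h), 0 to 1 against 0 (144 h), between the WT clones 0 to 2 against 2 (0 h), 3 to 4 against 5 (48 h), 3 to 5 against 5 (72 h), 0 to 2 against 2 (120 h), 5 to 8 against 8 (144 h), over time in p53KO–emiRFP cells 3 to 4 against 5 (72 to 96 h), 4 to 7 against 7 (120 to 144 h), for the difference of changes 0 to 2 against 2 (0 to 48 h), 1 to 3 against 3 (48 to 72 h), 5 to 7 against 8 (72 to 96 h), 0 to 2 against 2 (120 to 144 h). The cause of these changes was not tested, except that a minimum fold removes calls by construction. With CPM in place of size factors, 70 of the 180 percentages of the 0 h level moved by more than their SD, and with the longest transcript 10 of the 27 levels per length did. The subtraction of emiRFP RNA, chosen after seeing the data, is given beside the comparison by neighbour. The lowest raw count of a factor in any library was 118.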
